A study of Mus musculus with 96 samples.

Results

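The regions described here are the 782 hepatocyte chromatin peaks that were more accessible in fasted than in fed mice at each of 4 times after food was withdrawn, out of 46832 peaks in the deposited hepatocyte table (1.67%). They were chosen by their values. At each time, L was the log2 of the mean fasted level plus 2 minus the log2 of the mean fed level plus 2, and a member had an L of at least 0.5, a 1.41-fold higher level on that scale, at 3, 8, 16 and 24 h. Because the hepatocyte fasted and fed values chose the members, those values are given below as a description without a test, and the only tests concern macrophage mice, which the choice did not use.

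Open chromatin was profiled by ATAC-seq, in which a transposase cuts open chromatin and inserts sequencing adapters, on nuclei caught on beads from female mice. HEP-INTACT mice carry the nuclear tag in hepatocytes and MAC-INTACT mice carry it in macrophages, so both fed and fasted groups carry the tag. The promoter that drives the tag, the strain and the age are not given in the sources used here. Food was removed at ZT12, the onset of the active phase, and mice were killed 3, 8, 16 or 24 h later, at ZT15, ZT20, ZT4 and ZT12, each time beside mice fed ad libitum. Each of the 8 groups per cell type held 4 mice, and each time had its own fed mice, so no control mouse served 2 times. In macrophages, technical duplicates had been joined to 1 column per mouse.

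The level of a peak is a normalized read number, the reads over a 200 bp peak divided by a factor for the library. To undo that factor, levels were divided by the smallest step between values in each library, taken as 1 read. The sums over peaks were then 2458156 to 6098645 in the 32 hepatocyte libraries and 1729720 to 4637873 in the macrophage libraries. Hepatocyte identity was checked at promoters. Of 10 hepatocyte marker genes, 9 had a promoter peak (Ttr did not), with summed levels of 898 to 1327 in fed and 981 to 1491 in fasted mice. None of 10 Kupffer cell and macrophage genes, 8 sinusoidal endothelial genes or 8 lymphocyte and neutrophil genes had one, against 1 of 8 stellate and 1 of 6 cholangiocyte genes. In bulk nuclei, a higher level from more nuclei with an open site and one from wider opening in each nucleus cannot be told apart.

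In fasting, the liver turns from storing to releasing fuel: hepatocytes oxidize fatty acids, make ketone bodies and make glucose from amino acids, lactate and glycerol. Falling insulin, glucagon, glucocorticoids and fatty acids act through transcription factors such as CREB, FOXO, the glucocorticoid receptor, C/EBP proteins and PPAR alpha, which bind promoters and, above all, distal enhancers. Accessibility at an enhancer commonly increases as such factors bind. Each peak is named below by the gene with the nearest transcription start site (TSS), which does not show that it acts on that gene.

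Promoter sequence could be read for 42 member peaks. Each shared at least 1 base with the 250 upstream bases of a RefSeq (GRCm38.p6) promoter window, at 41 genes in all. The bases shared by peak and upstream window are shown for 6 of these peaks, chosen after their values were seen. They were picked because each carries a motif that was searched for and lies at a gene of known function. Each runs 5′ to 3′ on the gene's strand, with motif matches on either strand in capitals. Acot1, which cleaves fatty acyl-CoA (chr12:84009346-84009501, plus strand), holds a pair of C/EBP matches, TTGCNNAA, and a GC box. Map3k6, a stress kinase (chr4:133240621-133240817, plus strand), holds the glucocorticoid receptor palindrome ACANNNTGT. Mt2, the metal-binding metallothionein (chr8:94172381-94172580, plus strand), and Plin5, a lipid droplet coat protein (chr17:56117549-56117700, minus strand), hold an AP-1 site, TGANTCA. Plin5 also holds a GC box. Gdf15, a stress hormone (chr8:70632457-70632604, minus strand), holds AGGNCA in direct repeat with 1 base between, the arrangement PPAR alpha binds with its partner RXR. Cdkn1a, the cell cycle inhibitor p21 (chr17:29093601-29093768, plus strand), holds a pair of GC boxes, GGGCGGG.
Acot1: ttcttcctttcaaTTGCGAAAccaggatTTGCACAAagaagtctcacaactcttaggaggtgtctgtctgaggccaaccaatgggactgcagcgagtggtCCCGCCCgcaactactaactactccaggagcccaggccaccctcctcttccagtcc
Map3k6: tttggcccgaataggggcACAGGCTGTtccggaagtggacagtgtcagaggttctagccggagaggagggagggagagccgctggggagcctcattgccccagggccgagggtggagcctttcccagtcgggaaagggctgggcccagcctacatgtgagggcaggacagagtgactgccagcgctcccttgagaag
Mt2: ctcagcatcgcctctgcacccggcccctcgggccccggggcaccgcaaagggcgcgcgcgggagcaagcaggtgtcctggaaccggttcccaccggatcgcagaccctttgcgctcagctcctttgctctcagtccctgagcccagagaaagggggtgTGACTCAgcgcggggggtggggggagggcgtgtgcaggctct
Plin5: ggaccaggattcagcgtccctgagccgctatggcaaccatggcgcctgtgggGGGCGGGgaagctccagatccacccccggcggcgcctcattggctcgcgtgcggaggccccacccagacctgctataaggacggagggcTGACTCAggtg
Gdf15: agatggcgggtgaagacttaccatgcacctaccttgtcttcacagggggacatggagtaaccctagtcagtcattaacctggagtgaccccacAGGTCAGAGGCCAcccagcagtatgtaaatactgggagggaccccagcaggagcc
Cdkn1a: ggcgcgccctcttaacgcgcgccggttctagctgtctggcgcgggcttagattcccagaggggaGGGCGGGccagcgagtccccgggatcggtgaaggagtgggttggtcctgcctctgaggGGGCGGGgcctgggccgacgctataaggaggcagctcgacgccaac

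These promoters differed in how far they opened. At the Cdkn1a peak, 69 bp upstream of the TSS, mean levels went from 26.8 to 70.7 at 3 h, 47.6 to 135 at 8 h, 30.5 to 114 at 16 h and 17.4 to 101 at 24 h (fed to fasted, n = 4 each), with L of 1.33, 1.46, 1.84 and 2.42. The Gdf15 peak had L of 0.62, 1.40, 0.99 and 0.56, and its 4 fasted mice lay above its 4 fed mice at every time. The Plin5 peak was already high in fed mice at 3 h, at 138, 148, 127 and 123, against 213, 144, 220 and 189 fasted. There 1 fasted mouse lay within the fed range, and L was 0.51. The Map3k6 peak, at 15.3 ± 3.75 fed and 37.4 ± 13.7 fasted at 3 h (SD, n = 4), had L of 1.18, 1.20, 0.88 and 0.68.

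Across all 42 windows, the 250 bases upstream of the TSS were searched on both strands for 14 motifs. The AP-1 site occurred in 7 windows (16.7%, 95% Wilson interval 8.32 to 30.6%), beside 3.94% of the 10462 windows with any hepatocyte peak and 6.75% of all 32817 windows. The glucocorticoid receptor palindrome occurred in 5 windows (11.9%, interval 5.19 to 25.0%), beside 3.11% and 5.84%, at Acot1, Map3k6, Retreg1, E030018B13Rik and E230001N04Rik. Within the longest stretch that each window shares with a member, only Map3k6 and E030018B13Rik held it. The C/EBP motif also occurred in 5 windows, beside 7.70% and 9.57%. The cAMP response element TGACGTCA, which CREB binds, occurred in 3 windows (7.14% beside 3.11% and 1.55%), those of Braf, Dusp8 and Tmc7. The direct repeat occurred in 2 windows (4.76%, beside 0.296% and 0.338%), but Gdf15 and Gm34154 share 1 peak there. The GC box occurred in 19 windows (45.2%), close to the 47.5% of windows with any hepatocyte peak, and median G and C content was 60.4% beside 61.2%. The E-box CACGTG was found in 3 windows (7.14% beside 9.17%) and the REV-ERB and ROR element TAGGTCA in 1 (2.38% beside 1.62%). The FOXO (TGTTTAC), ATF4 and C/EBP composite (TGATGNAA), HNF4 (CAAAGTCCA), STAT (TTCNNNGAA), D-box (TTANGTAA) and SREBP (TCACNCCAC) letters were in none of the 42. By a limit of 3 counts this allows a share of up to 7.14%, and the 95% Wilson upper bound is 8.38%. These shares describe promoter windows only, and a counted motif can lie outside the bases shared with the member. Motifs can overlap, and the distal members were not searched.

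Over all members, the median level in fed mice was low and steady through the first 3 times. Per mouse it was 21.2, 21.4, 20.6 and 21.0 at 3 h, 19.3, 18.6, 20.2 and 19.6 at 8 h, and 20.3, 18.8, 17.7 and 20.2 at 16 h. At 24 h it was 26.3, 29.4, 25.2 and 28.9, above every fed mouse of the earlier times. In fasted mice it was 56.6, 35.0, 52.4 and 43.4 at 3 h, 51.2, 63.6, 48.8 and 68.3 at 8 h, 36.3, 43.6, 57.7 and 36.7 at 16 h, and 56.4, 55.9, 50.0 and 50.8 at 24 h. At every time each fasted median exceeded each fed one, as the choice of members makes likely. The median over all 46832 peaks stayed between 50.0 and 59.3 in every library, so fed members lay well under the typical peak. Fasted members lay nearer to it, from 35.0 beside 50.0 (3 h, replicate 2) to 68.3 beside 56.6 (8 h, replicate 4). Fasted mice at 24 h (53.3 ± 3.38, SD, n = 4) varied less among themselves than at 3 h (46.9 ± 9.64), 8 h (58.0 ± 9.42) or 16 h (43.6 ± 10.01).

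**Figure D1:**
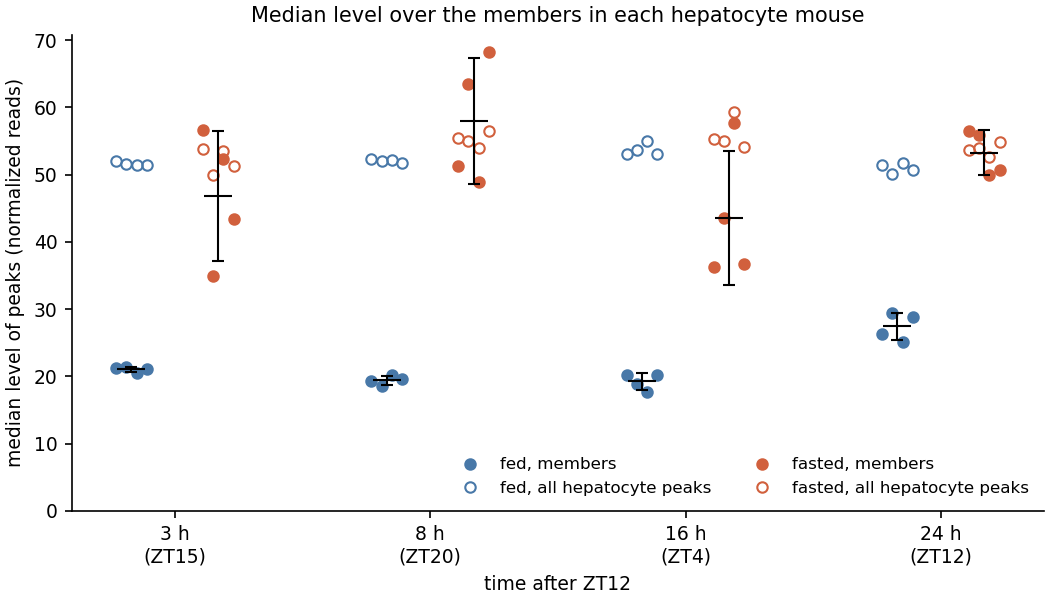
Median level in normalized reads (y axis) over the 782 members (filled) and over all hepatocyte peaks (open) in each mouse, by time after ZT12 (x axis). Black bars give the mean and SD of 4 mice for the members, from 19.2 ± 1.23 in fed mice at 16 h to 58.0 ± 9.42 in fasted mice at 8 h, and the open points stay between 50.0 and 59.3.

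The difference was widest at 8 h and narrowest at 24 h. Median L of the members was 0.96, 1.39, 0.95 and 0.79 at 3, 8, 16 and 24 h, against -0.01, 0.09, 0.11 and 0.16 over all peaks. The single-time limit was passed by 10.5%, 14.9%, 11.8% and 9.34% of all peaks. An L of at least 2, a level 4 times as high, was reached by 63 members at 3 h, 146 at 8 h, 55 at 16 h and 13 at 24 h. For 475 members (60.7%) L was largest at 8 h, and for 346 (44.3%) it was smallest at 24 h.

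The narrower difference at 24 h went with a higher fed level. The fed mean was highest at 24 h, ZT12, in 503 members (64.3%), against 19.1% of all peaks. The ratio of the highest to the lowest fed mean over the 4 times had a median of 1.63 against 1.26. Fed values helped choose the members and were lower there than over all peaks, and fewer reads widen such a ratio. These contrasts with all peaks are thus description only. The highest fasted mean was at 8 h in 380 members (48.6%) and at 24 h in 265 (33.9%). Hours of fasting and clock time run together in the fasted mice and cannot be told apart. The fed groups of different times are also different mice and libraries, and the cause of their difference was not tested.

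The separation of single mice comes from the same values that chose the members, and large mean differences make it common, so nothing is read from its distance to the share of all peaks. All 4 fasted mice lay above all 4 fed mice in 624 members at 3 h (79.8%, against 13.1% of all peaks), 693 at 8 h (88.6%, against 18.2%), 460 at 16 h (58.8%, against 14.2%) and 628 at 24 h (80.3%, against 25.0%). It held at all 4 times in 277 members (35.4%, against 1.05%), at exactly 3 times in 319, at 2 in 157, at 1 in 26 and at none in 3. In 68 members every fasted mouse of any time lay above every fed mouse of any time. In the fasted group at 16 h, replicate 3 was the highest of the 4 in 488 members (62.4%), against 35.4% of all peaks. At 3 h replicate 1 was the highest in 439 (56.1%), against 35.0%. A high mouse lifts the fasted mean that chose the members, so these shares too are description only. Without the 16 h mouse the rule gave 671 members, of which 642 were among the 782.

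Most members passed the limit narrowly. The smallest of the 4 L values was 0.5 to 0.6 in 302 members, up to 0.75 in a further 213, up to 1 in 175, up to 1.5 in 79 and above that in 13, and another 456 peaks missed with a smallest L of 0.4 to 0.5. Just inside lay peaks near Hif3a, a hypoxia-inducible factor subunit (L of 0.59, 0.68, 0.50 and 0.88 at 3, 8, 16 and 24 h), Cebpb, a C/EBP transcription factor (0.50, 0.98, 0.61 and 0.77), and Cdv3 (0.87, 0.50, 0.54 and 0.80). Just outside lay peaks near 3930402G23Rik (0.54, 0.50, 0.54 and 0.90), Tdo2, the first enzyme of tryptophan breakdown (1.71, 1.62, 0.50 and 1.17), and Abcc12 (0.63, 1.23, 0.58 and 0.50).

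Members lay away from promoters. Of the 782, 101 (12.9%) were within 1000 bp of a TSS, against 34.9% of all hepatocyte peaks, and the median distance was 14686 against 6101.5 bp. By the deposited annotation, 8.18% were in promoters against 28.5%, 45.5% in introns against 37.6%, and 38.8% intergenic against 27.5%. The 1213 peaks past the limit at 3 and 8 h but not at 16 and 24 h had 25.8% within 1000 bp, and the 346 past it at 16 and 24 h but not at 3 and 8 h had 36.4%. The 1334 peaks with an L of -0.5 or less at all 4 times had only 5.85%, with a median distance of 22599 bp. In both directions, then, peaks that differed at every time were seldom at promoters. The distal position was not part of the rule, but no test is made, since neighbouring peaks share bases and loci.

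**Figure D2:**
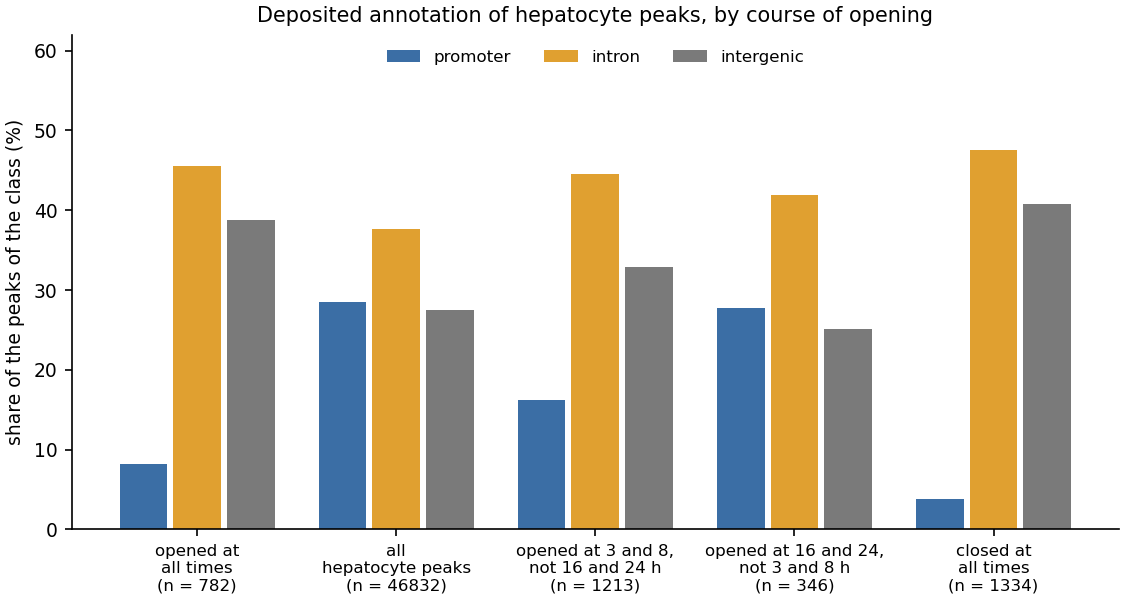
Share of peaks in percent (y axis) annotated as promoter, intron or intergenic in 5 sets of hepatocyte peaks (x axis, with the number of peaks). The members have 8.18% in promoters, against 28.5% of all hepatocyte peaks.

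Members also lay near each other. Another member was within 1 kb of 148 members (18.9%), within 10 kb of 248 (31.7%) and within 50 kb of 329 (42.1%), whereas a member was within those distances of 0.734%, 3.30% and 9.66% of the other peaks. Of the members, 51 shared bases with another, so the 782 formed 755 separate stretches. Joined at gaps of up to 50 kb, they formed 574 loci, of which 453 held 1 member, 71 held 2 and 50 held 3 or more. By nearest TSS they fell to 591 genes, 120 of which had 2 or more members.

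At several loci many or all of the hepatocyte peaks were members. All 6 peaks at chr4:115484433-115497822 around Cyp4a14, a fatty acid omega-hydroxylase and PPAR alpha target, were members. So were 7 of 11 peaks at the mTORC1 inhibitor Ddit4 and Dnajb12 (1 of the 7 is nearest to Dnajb12), 7 of 14 at Por, the reductase that feeds electrons to cytochromes P450, and Tmem120a, and 7 of 15 at Mat1a, which makes S-adenosylmethionine, and Sftpa1. Angptl4 had 5 of 9, the neighbours Plin4, Plin5 and Lrg1 together 5 of 9, Gng7 5 of 7, Pdk4 4 of 5, and a stretch between Fkbp5 and Armc12 4 of 6.

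Fatty acid oxidation and ketogenesis held 20 members among the 166 peaks whose nearest TSS, within 50 kb, was that of a listed gene (12.0%, beside 1.67% of all peaks), at 10 of 30 genes, among them Acot1, Acot2, Cpt1a, Cyp4a14, Ehhadh, Hadha, Pdk4, Plin5 and Vnn1. Over those 166 peaks median L was 0.21, 0.39, 0.26 and 0.28, so most peaks of the list were not members. The member with the highest smallest L of all lay 11183 bp downstream of the Cyp4a14 TSS (chr4:115484858-115485058). Its fed levels were 2.57, 2.21, 3.43 and 0.725 at 3 h, 2.75, 1.86, 0.697 and 4.76 at 8 h, 0.699, 0.697, 0.00 and 4.25 at 16 h, and 1.22, 3.98, 2.72 and 3.50 at 24 h. Its fasted levels were 84.0, 50.5, 54.5 and 32.4 at 3 h, 63.3, 116, 70.7 and 110 at 8 h, 21.6, 49.9, 36.9 and 63.7 at 16 h, and 70.2, 55.9, 74.6 and 23.7 at 24 h. The site was nearly closed in every fed mouse and open in every fasted one, with L of 3.76, 4.35, 3.72 and 3.58. The Cyp4a14 promoter peak, 72 bp upstream of the TSS, was open in fed mice too and differed less, with means of 15.1 and 53.1 at 3 h and 16.7 and 72.8 at 8 h and L of 1.69 at 3 h and 1.94 to 2.06 later. The other peaks around the gene had L between 0.53 and 4.24. Cyp4a14 and Acot1 belong to families of close copies, and how reads that match several copies were counted is not given in the sources used here.

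Pdk4, the kinase that shuts pyruvate out of oxidation, had a member 13646 bp upstream. Its fed levels at 8 h were 44.1, 34.4, 41.1 and 39.3 and its fasted levels 205, 175, 172 and 212. No mice overlapped, nor did they at 16 h, at 34.0 ± 4.38 against 134 ± 29.0, and L was 1.59, 2.21, 1.92 and 1.11. At the Acot1 promoter, L was 1.14, 2.06, 1.82 and 1.19, and the fasted mice at 16 h ranged from 17.3 to 111, so that 1 of them reached fed levels. Cpt1b, the muscle form of the enzyme that admits fatty acids to mitochondria, had a member at its promoter, with means of 6.34 and 46.5 at 8 h and L of 1.44 at 3 h, 2.54 at 8 h and 1.51 at 16 h. Cpt1a, the liver form, had L of 0.60, 1.06, 0.53 and 0.84 at its promoter member, where the groups overlapped at 16 h. Ehhadh, of peroxisomal oxidation, had L of 1.53, 2.76, 1.78 and 0.71, and Vnn1, a pantetheinase, 1.13, 2.38, 2.11 and 0.56.

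Lipid handling held 19 members among 179 peaks (10.6%), at Angptl4, Apoa5, Cpt1a, Dgat2, Gpam, Lpin1, Plin4, Plin5 and Pnpla2. Median L over the 179 was 0.22, 0.36, 0.18 and 0.34. The lists share genes. Cpt1a and Plin5 are also listed under fatty acid oxidation, and Angptl4 and Lpin1 under the glucocorticoid response below. Pnpla2 is also among the insulin and FOXO targets. Among the other lists, Tat, Gpt2, Cebpd and Ppargc1a recur. Peaks of a shared gene count in each of its lists, so the shares of the lists are not independent. Lpin1 encodes a phosphatidate phosphatase that also serves as a coactivator of fatty acid oxidation genes. At its member 9443 bp upstream, fed levels were 28.9, 24.3, 15.1 and 18.9 at 3 h, 7.34, 10.2, 11.1 and 10.7 at 8 h, 6.99, 4.88, 4.91 and 5.31 at 16 h, and 41.0, 38.2, 18.4 and 55.1 at 24 h. Fasted levels were 120, 59.5, 100 and 78.2 at 3 h, 155, 161, 151 and 196 at 8 h, 42.3, 55.1, 168 and 35.8 at 16 h, and 132, 125, 127 and 94.1 at 24 h. Fed levels at this site were lowest at 16 h and highest at 24 h, and the fasted mice lay above them at each time, with L of 1.94, 3.82, 3.36 and 1.60.

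Plin4, a lipid droplet coat protein, had a promoter member 103 bp upstream with fed levels of 25.0, 29.5, 21.3 and 23.9 at 3 h against 160, 104, 142 and 131 fasted. At 24 h it was 22.0, 34.2, 44.9 and 29.7 against 145, 153, 122 and 132, and L was 2.34, 2.45, 1.44 and 2.01. The difference was nearly as wide after a day as after 3 h. Angptl4, an inhibitor of lipoprotein lipase, had L of 0.79, 1.41, 1.46 and 0.52 at a promoter member. Another of its promoter members, 123 bp downstream of the TSS, had a smallest L of 0.71. Pnpla2, the triglyceride lipase ATGL, had L of 0.81, 2.09, 1.57 and 1.09 in an intron.

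**Figure D3:**
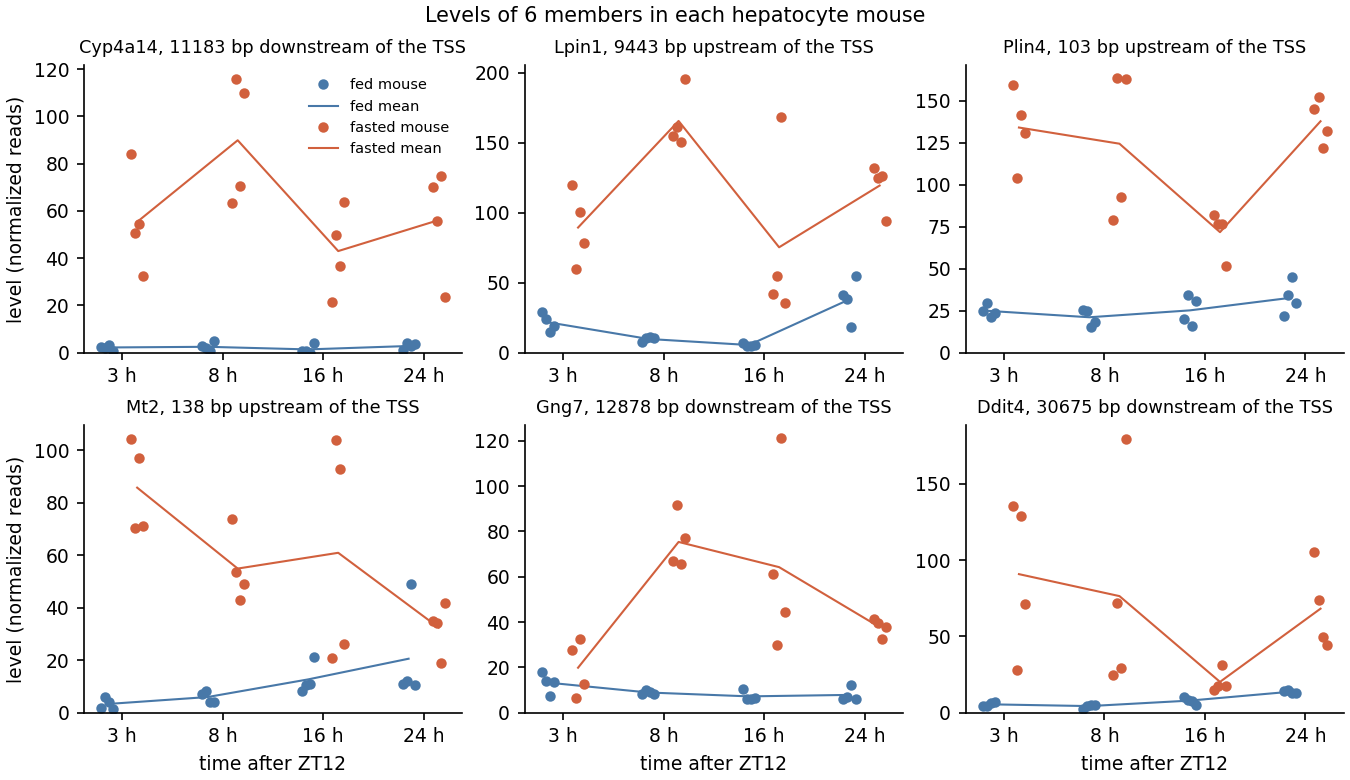
Level in normalized reads (y axis) at 6 members in each fed (blue) and fasted (orange) hepatocyte mouse by time after ZT12 (x axis), with lines through the means of 4 mice. The Cyp4a14 site stays at or under 4.76 in fed mice, fed Lpin1 levels are highest at 24 h, Mt2 narrows from L of 4.04 to 0.61, and Gng7 widens from 0.51 to 2.01.

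Genes of the glucocorticoid response held 25 members among 222 peaks (11.3%), at Angptl4, Cdkn1a, Cebpd, Ddit4, Fkbp5, Il1r2, Lpin1, Mt2 and Tat of 24 genes, and median L over the 222 peaks was 0.38, 0.35, 0.08 and 0.45. Glucocorticoids are adrenal hormones whose level rises toward the active phase and in fasting. At Cebpd, a C/EBP transcription factor, the member 2411 bp downstream of the TSS had fed levels of 12.9, 10.2, 12.5 and 7.14 and fasted levels of 38.4, 110, 41.9 and 130 at 8 h. At 24 h they were 41.6, 58.9, 40.1 and 53.4 fed against 176, 139, 157 and 133 fasted. Both states were at their highest at 24 h, and L was 2.01, 2.70, 1.78 and 1.60.

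Ddit4, which restrains mTORC1, was least open in fasted mice at 16 h. Its member 30675 bp downstream had fed levels of 4.49, 4.43, 6.17 and 7.25 and fasted levels of 135, 28.0, 129 and 71.1 at 3 h, and L of 3.61, 3.61, 1.15 and 2.15. At 16 h its fasted levels were 14.7, 17.7, 31.3 and 17.5. The other Ddit4 members likewise had their smallest L, 0.50 to 1.03, at 16 h. Fkbp5, a chaperone that damps the glucocorticoid receptor, had an intron member with L of 2.66, 1.80, 0.87 and 0.84. In fasted mice at 8 h it read 9.25, 65.0, 8.62 and 64.1, so replicates 1 and 3 were at fed levels and replicates 2 and 4 were not. A second Fkbp5 intron member had L of 1.40, 1.71, 1.03 and 0.93.

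A member between Fkbp5 and Armc12 kept a wide difference at 16 h. At chr17:28523100-28523300, 7661 bp upstream of Armc12, fed levels at 16 h were 14.0, 7.67, 14.7 and 9.56 and fasted levels 57.0, 67.5, 86.6 and 62.8. L there was 1.62, 2.71, 2.39 and 1.75, and no mice overlapped at any time. The members nearby at 28518105 and 28522582 had a smallest L over the 4 times of 0.89 and 0.61. Il1r2, a decoy receptor for interleukin 1, had a member with L of 1.36, 3.13, 2.63 and 1.64.

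Mt2, a textbook target of glucocorticoids and zinc, had the largest loss of L from 3 to 24 h. Its promoter member, 138 bp upstream, had fed levels of 1.93, 5.90, 4.11 and 1.45 and fasted levels of 104, 70.5, 97.1 and 71.1 at 3 h. At 24 h they were 11.0, 11.9, 49.0 and 10.5 fed against 35.1, 34.1, 18.8 and 41.8 fasted, so the groups overlapped. L was 4.04, 2.83, 2.10 and 0.61. The adjoining member 60 bp downstream of the TSS had L of 3.70, 3.04, 1.79 and 1.04.

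Gluconeogenesis held 7 members among 135 peaks (5.19%), at Gpd1, Gpt2, Ldha and Ppargc1a, and amino acid catabolism 9 among 237 (3.8%), at Gpt2, Slc38a4, Slc7a2, Tat and Tdo2. Ppargc1a encodes the coactivator PGC-1 alpha. Its intron member had fed levels of 3.85, 2.21, 6.86 and 5.80 against 54.6, 26.0, 65.5 and 42.6 fasted at 3 h, and 2.75, 5.57, 4.88 and 3.57 against 3.56, 41.0, 9.19 and 51.7 at 8 h. L was 2.88, 2.20, 1.22 and 1.59. Tat, which degrades tyrosine, read 8.26, 7.43, 6.27 and 4.76 fed and 5.69, 70.6, 5.17 and 66.2 fasted at 8 h, 2349 bp upstream. As at Ppargc1a, fasted replicates 2 and 4 were far above replicates 1 and 3, and L was 3.16, 2.16, 0.92 and 1.72 with overlapping groups at 8 and 16 h. Gpt2, alanine aminotransferase, differed more evenly, at 12.9, 15.8, 9.06 and 14.9 against 34.2, 41.0, 28.7 and 75.2 at 8 h, with L of 0.92, 1.63, 1.90 and 1.17. Ldha, lactate dehydrogenase, had L of 0.91, 0.64, 0.90 and 0.66, and the amino acid transporter Slc38a4 1.23, 2.27, 1.68 and 1.23.

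The next 4 lists had shares of members nearer to the 1.67% of all peaks, and no more than single genes are described from them. Insulin and FOXO targets held 3 members among 127 peaks (2.36%), at Igfbp1 and Pnpla2. Igfbp1, a binder of insulin-like growth factors that insulin represses, had a member 6188 bp downstream with fed levels of 1.93, 1.48, 2.06 and 0.00 against 94.6, 28.0, 60.0 and 28.4 fasted at 3 h. At 16 h these were 11.9, 9.76, 7.86 and 19.1 against 7.77, 45.7, 21.6 and 8.73. The early separation was not kept, and L was 4.02, 3.37, 0.70 and 1.32.

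The clock genes held 4 members among 134 peaks (2.99%), at Dbp, Per2 and Rora. Per2 is a repressor of the core clock. Its intron member read 9.18, 6.50, 11.1 and 5.36 fed and 76.8, 36.7, 40.2 and 49.7 fasted at 8 h, and 6.29, 7.67, 12.8 and 9.56 against 62.2, 34.3, 175 and 30.6 at 16 h. The groups overlapped only at 3 h, and L was 0.86, 2.40, 2.81 and 1.27. Rora, a nuclear receptor of the clock, had L of 1.46, 2.20, 2.16 and 1.47, and Dbp, a clock output factor, 0.97, 1.15, 0.63 and 0.50. Autophagy and lysosome genes held 3 members among 108 peaks (2.78%), at the mitophagy receptor Bnip3l (L of 1.61, 2.54, 1.52 and 0.64), the autophagosome protein Map1lc3a (0.95, 0.85, 0.69 and 0.69) and the stress protein Sesn2 (0.71, 1.27, 1.27 and 0.86).

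Fasting transcription factors held 6 members among 210 peaks (2.86%), at Cebpb, Cebpd, Ppargc1a and Rxra. Rxra, the partner of PPAR alpha, had L of 1.29, 1.46, 1.48 and 1.17. Fatty acid and sterol synthesis held 5 among 157 (3.18%), while 25 of its peaks had an L of -0.5 or less at all times. The 5 lay at Fads1, a fatty acid desaturase (L of 0.60, 1.09, 0.87 and 0.84), Hmgcs1 of cytosolic sterol synthesis (1.00, 1.12, 0.62 and 0.68), Me1 and Insig1. Insig1, which holds back sterol synthesis, had L of 1.25, 1.27, 0.72 and 1.08. None of the 89 peaks of the growth hormone and STAT5 axis was a member, which allows up to 3.37%, and 4 had an L of -0.5 or less at all times.

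Among the 12 members with the highest smallest L, several lay at genes with less known roles in fasting. In an intron of Cobll1, 11928 bp downstream, fed levels at 3 h were 5.78, 7.38, 8.91 and 5.80 and fasted levels 81.5, 32.5, 74.2 and 57.6. L was 2.82, 3.17, 1.89 and 1.84, and no mice overlapped at any time. Upstream of Tmem86a, whose protein breaks down lysoplasmalogens, L was 1.62, 2.88, 2.52 and 2.15. Sult1d1, a sulfotransferase, had L of 2.45, 1.88, 1.70 and 1.52, and Parva, an actin-binding protein at integrin adhesions, 1.64, 2.47 and 1.59 at 3, 8 and 16 h. The zinc finger gene Tshz1 had 2.06, 2.06, 1.61 and 1.99, and the noncoding RNA Redrum, 171452 bp away, 2.57, 3.15, 1.58 and 1.69.

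The members with the largest gain of L from 3 to 24 h lay near Gng7, Kctd13 and Chil1. At Gng7, a G protein gamma subunit, the member 12878 bp downstream read 18.0, 14.0, 7.54 and 13.8 fed and 27.7, 6.50, 32.7 and 12.6 fasted at 3 h, with overlapping groups. At 8 h it read 8.26, 10.2, 9.06 and 8.33 against 66.9, 91.8, 65.5 and 77.3, and at 24 h 6.12, 7.16, 12.2 and 6.12 against 41.3, 39.8, 32.4 and 37.7. L was 0.51, 2.82, 2.84 and 2.01. Kctd13, an adaptor of a ubiquitin ligase, had 0.92, 1.71, 1.37 and 2.13, and Chil1, a chitinase-like secreted protein, 0.57, 1.42, 1.78 and 1.78.

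The macrophage mice were used to ask whether the same places differed with fasting in other liver nuclei. In the macrophage table, all 10 Kupffer cell and macrophage marker genes had a promoter peak. Summed over them, levels were 838 to 1070 in fed and 848 to 941 in fasted mice at 3 h, 918 to 1050 and 730 to 912 at 8 h, 870 to 1060 and 717 to 902 at 16 h, and 713 to 1110 and 779 to 856 at 24 h. At 8 h every fasted mouse thus lay below every fed mouse. The part of this in the macrophage results below was not tested. By contrast, none of the 10 hepatocyte markers had one, and Ptprc and S100a8 of the lymphocyte and neutrophil list and Lyve1 of the endothelial list did. Of the members, 60 (7.67%) shared at least 1 base with a macrophage peak, against 30.3% of all hepatocyte peaks. Among peaks farther than 1000 bp from a TSS, the shares were 5.29% and 8.97%. Of the 12 named members with the highest smallest L, 1 lay over a macrophage peak, as did 2 of the top 50 members, and no macrophage peak had Cyp4a14 as its nearest gene.

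At the 62 macrophage peaks over members, nearest to 54 genes, macrophages of fasted mice were often more accessible too. Opened here means a higher level in fasted mice at an adjusted p under 0.05 by limma, fitted on log2 of the level plus 2 over all 30170 macrophage peaks with Benjamini-Hochberg adjustment, and closed means a lower one. Opened were 21 of 62 at 3 h (33.9%, against 1.68% of all macrophage peaks), 26 at 8 h (41.9%, against 1.63%), 20 at 16 h (32.3%, against 3.79%) and 23 at 24 h (37.1%, against 3.00%). Closed were 0 at 3 h (against 0.139%), 0 at 8 h (4.96%), 1 at 16 h (17.5%) and 0 at 24 h (8.28%). At an unadjusted p under 0.05, 1, 0, 2 and 1 of the 62 were lower at 3, 8, 16 and 24 h. Among the 14136 macrophage peaks over any hepatocyte peak, 0.927%, 2.04%, 6.32% and 3.63% were opened. Closed among these were 0.12%, 0.722%, 6.7% and 2.9%, at 8, 16 and 24 h well below the shares of all macrophage peaks.

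The changes were modest in size. Median log2 fold change over the 62 was 0.24, 0.30, 0.23 and 0.30 at 3, 8, 16 and 24 h, against 0.00, -0.07, -0.10 and -0.06 over all macrophage peaks, and 58, 51, 54 and 48 of the 62 were above 0. Opened at 1 or more times were 42 (67.7%, near 36 genes, against 7.23% of all), at 2 or more times 26, at 3 or more 15 and at all 4 times 7. By position, 28 of 37 peaks farther than 1000 bp from a TSS were opened at 1 or more times (75.7%, against 6.49% of all such macrophage peaks) and 14 of 25 nearer ones (56.0%, against 8.08%), a division made after the values were seen.

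The balance of calls over all macrophage peaks depended on the scaling of the libraries, and so did the count over members at 16 h. Opened peaks were 24.8% of all calls at 8 h, 17.8% at 16 h and 26.6% at 24 h as deposited, but 66.5%, 59.0% and 58.6% with each library centred on its median. With quantile normalization they were 58.6%, 46.5% and 45.5%. With median centring, 35 of the 62 were opened at 16 h, against 12.5% of all macrophage peaks, and the 20 opened as deposited were among them. At 24 h it gave 31, against 23 as deposited, and quantile normalization gave 30 at 16 h and 29 at 24 h.

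**Figure D4:**
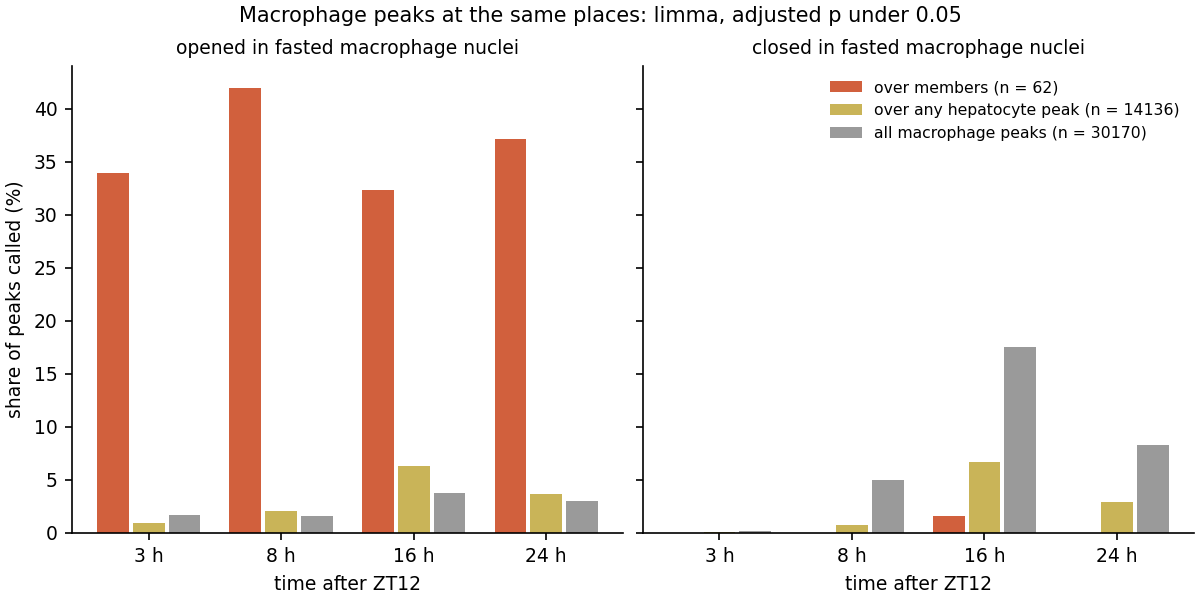
Share of macrophage peaks in percent (y axis) called opened (left) or closed (right) by limma at each time after ZT12 (x axis), for the 62 peaks over members, the 14136 over any hepatocyte peak and all 30170. Opened shares over members lie between 32.3 and 41.9%, while all macrophage peaks stay at or under 3.79%.

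The macrophage changes with the smallest p lay near Armc12, Klf9, Agfg2, Ddit4 and Bcl2l1. At the peak at chr17:28518105-28518305, between Fkbp5 and Armc12, macrophage levels at 3 h were 49.8, 64.5, 89.8 and 70.1 fed and 183, 198, 215 and 194 fasted. At 16 h they were 36.3, 32.3, 46.2 and 42.8 against 37.9, 48.8, 72.0 and 59.4, and the groups overlapped. The log2 fold change was 1.52 ± 0.14 (SE, n = 4 against 4, adjusted p = 1.79e-11, limma) at 3 h, 1.72 at 8 h, 0.43 at 16 h (adjusted p = 0.0233, limma) and 0.85 at 24 h, so the site rose at every time. A second peak there, at 28523100, also passed the test at every time, with 1.81 at 8 h, 0.58 at 16 h and 1.23 at 24 h.

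Klf9, a Krüppel-like factor known as a direct glucocorticoid target, had a member 84170 bp upstream that was open in both cell types. In macrophages at 3 h it read 33.9, 50.8, 56.6 and 65.2 fed and 149, 154, 180 and 180 fasted, with no overlap, a log2 fold change of 1.68 ± 0.15 (SE, n = 4 against 4, adjusted p = 1.68e-11, limma). The later changes were 1.26, 0.67 and 0.58. In hepatocytes the same place had L of 1.74, 2.02, 1.31 and 0.86.

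At Ddit4, the peak at chr10:59970148-59970348 in macrophages read 11.3, 7.77, 4.16 and 3.26 fed and 29.7, 34.9, 48.7 and 60.5 fasted at 3 h. The log2 fold change was 2.45 ± 0.25 (SE, n = 4 against 4, adjusted p = 7.42e-10, limma) at 3 h, 2.15 at 8 h, 0.28 at 16 h (adjusted p = 0.453, limma) and 1.66 at 24 h. The difference at 16 h did not pass the test, at the time when the hepatocyte Ddit4 members also had their smallest L. Bcl2l1, whose product is the survival protein Bcl-xL, changed by 1.05, 0.80, 0.29 and 0.31, and passed the test at 3 and 8 h only (adjusted p = 0.0705 and 0.0731 at 16 and 24 h, limma).

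Agfg2, which is related to a nuclear export factor, ran the other way in time. In macrophages its peak at chr5:137672032-137672232 read 32.5, 29.3, 23.5 and 28.1 fed and 153, 69.6, 74.4 and 93.6 fasted at 16 h, all fasted mice above all fed ones. The log2 fold change was 0.73 at 3 h, 0.79 at 8 h, 1.65 ± 0.15 (SE, n = 4 against 4, adjusted p = 2.45e-10, limma) at 16 h and 1.26 at 24 h. A neighbouring macrophage peak shares 9 bases with it, so the pair is not independent. Arl4a, a small GTPase, held the single closed peak, with log2 fold changes of 0.41, 0.13, -0.46 (adjusted p = 0.0341, limma) and 0.30. There the fed mice at 16 h read 42.5, 35.9, 39.1 and 29.3 and the fasted mice 23.2, 22.2, 25.3 and 34.2, which overlap.

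Whether the macrophage effect differed between times was tested by an F test in limma over the 4 effects, an alternative added after the data were seen. It passed for 14 of the 62 peaks (22.6%, against 3.49% of all macrophage peaks), among them those near Armc12, Klf9, Ddit4, Bcl2l1, Agfg2 and Arl4a. Differences between hepatocyte and macrophage effects were not tested, since the hepatocyte values chose the places.

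**Figure D5:**
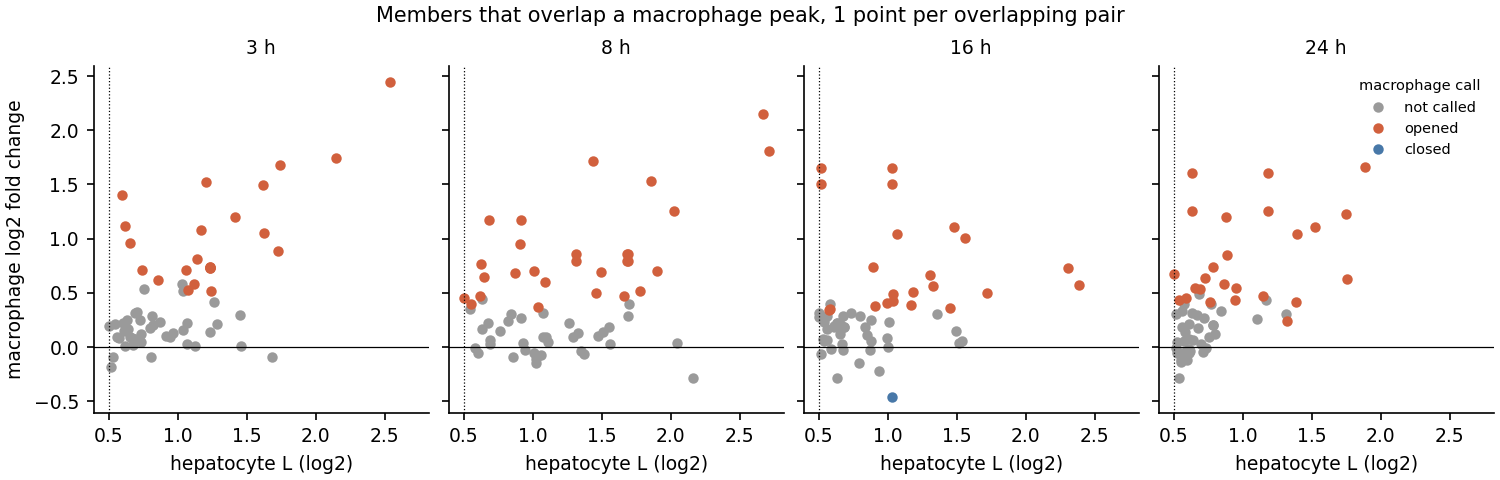
Macrophage log2 fold change (y axis) against hepatocyte L (x axis) for each overlapping pair of a member and a macrophage peak, 1 panel per time, coloured by the macrophage call. All points lie right of the dotted line at L of 0.5, which the choice of members fixes, and of the 62 macrophage peaks 58, 51, 54 and 48 lie above 0 at 3, 8, 16 and 24 h.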

How the data were processed

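ATAC-seq levels were taken from 2 deposited tables, 1 for hepatocyte and 1 for macrophage nuclei, with 1 column for each of 32 mice per cell type. About 25000 nuclei per sample and 12 PCR cycles were used, per the labels' protocols. The values are a normalized signal, reads over each peak divided by 1 factor per library as deposited by the authors; how that factor was set is not given in the sources used here. The submitters' processing notes name BWA 0.7.5a-r405, SAMtools, HOMER, DESeq2 and mm10 without their roles. The authors' deposited log2 fold change and p-value columns, whose making no header or label records, were not used.

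L was computed from the 4 mice per group with an offset of 2, and members were taken at 0.5. The members, gene lists and tests were chosen with earlier results of these data known. Genes were named by a written rule (the 12 highest smallest L, up to 3 per list, the 6 genes with most members, the macrophage peaks of smallest p, the edges of the limit and the largest shifts with time); Cdkn1a, Map3k6, Gdf15, Plin5, Cpt1a, Fkbp5, Ehhadh and Vnn1, and the loci at Por and Mat1a, were chosen after their values were seen. A locus that the rule names is not reported here. Macrophage peaks with a mean of at least 10 were tested on log2(level + 2) with limma 3.58.1 (R 4.3.3), a trended prior variance, all 8 groups in 1 fit, two-sided, with Benjamini-Hochberg adjustment. The script was tested on simulated data. Nothing says whether the 4 mice of a group came from separate cages or days, so p-values measure the spread between these mice. Overlap by at least 1 base was found with bedtools 2.31.1. With no genome at hand, motifs were searched in RefSeq promoter windows instead of in the peaks. Coordinates are those of the files. The total reads per library limit the precision of low levels, and intervals cover counting only. Alternatives covered the offset, limit, scaling, filter, overlap, promoter distance, replicate block and single mice.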

Additional observations from a re-analysis of the deposited data

Results flagged for a closer look

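A mouse that stood apart from the other 3 of its group was found 14 times among 264 groups, where about 1 in 20 groups is expected by chance. The 264 cover named members in hepatocytes, macrophage peaks over some of them, and the median over all members. All 14 were in hepatocyte groups of named members. Of these, 5 were fasted replicate 3 at 16 h as the highest mouse: 168 at Lpin1, 47.3 at Redrum, 52.1 at Sult1d1, 79.4 at Parva and 51.3 at Rora. The fed groups gave a highest mouse of 4.25 at Cyp4a14 at 16 h, 8.26 at Cpt1b at 8 h, 49.0 at the Mt2 promoter at 24 h, 10.5 and 12.2 at Gng7 at 16 and 24 h and 15.8 at Kctd13 at 8 h, and a lowest mouse of 9.60 at Kctd13 at 3 h. A lowest fasted mouse of 31.9 at Tshz1 at 24 h and of 135.0 at the Mt2 peak downstream of the TSS at 8 h were also apart. At Mt2 at 24 h the high fed mouse lies above every fasted mouse, and the other fed mice lie below all fasted ones.

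In macrophages, the fasting effect differed between the 4 times (limma F test, adjusted p) at the 28518105 peak near Armc12 (3.46e-05), Ddit4 (0.000381), Klf9 (0.00165), Bcl2l1 (0.00352), the 28523100 peak near Armc12 (0.0109), Agfg2 (0.0143) and Arl4a (0.0484). At Armc12, Ddit4, Klf9 and Bcl2l1 the largest effects were at 3 or 8 h, and at Agfg2 at 16 h.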

How the results depend on the processing

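The number of members was 446 with an offset of 10, 92 with a limit of 1 and 277 when fed and fasted mice could not overlap, and all of these were among the 782. It was 828 with an offset of 1, 619 with 5 and 578 with each library centred on its median, and 671 to 851 with any 1 mouse left out, the lowest without fasted 16 h replicate 3. With the median of the 4 mice in place of their mean it was 703, of which 603 were among the 782. The promoter share was 9.59% within 500 bp (30.2% of all peaks) and 18.4% within 2000 bp (39.5%), below all peaks at each distance. Macrophage peaks opened over members numbered 16 to 22 at 3 h, 19 to 27 at 8 h, 14 to 20 at 16 h and 19 to 25 at 24 h with any 1 mouse left out. Median centring gave 35 at 16 h. The single closed peak at 16 h was lost with median centring and with quantile normalization (0 each), and the count was 0 to 1 with 1 mouse left out; no peak was closed at 3, 8 or 24 h in any of these. With a replicate block on the library number sets, 22, 27, 21 and 25 were opened and 0, 0, 1 and 0 closed, so the block changed no count beyond 1.5 times. The planned edgeR and DESeq2 alternatives were not run, since the deposited macrophage values, although whole multiples of 1 step in each library, did not meet the check set for treating them as read counts. The motif search in the central part was applied to the promoter window, where the direct repeat share went to 0.0%, the E-box to 2.38%, the GC box to 19.0% and the glucocorticoid receptor palindrome to 7.14%. Low fed levels, at or under a few normalized reads at sites such as Cyp4a14 and Igfbp1, make the size of L depend on the offset. The 4 mice a group limit what can be said of single peaks, and distal sequence was not analysed here.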

Other observations

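Within a fasted group, the same mice often ranked highest. These ranks come from the fasted values that chose the members, and a high mouse lifts the fasted mean. Nothing is therefore read from their distance to the share of all peaks. At 3 h replicates 1 and 3 were the 2 highest of 4 in 472 members (60.4%), against 28.4% of all peaks. At 8 h replicates 2 and 4 were the 2 highest of 4 in 459 members (58.7%), against 26.2% of all peaks, and at Tat, Fkbp5 and Ppargc1a replicates 1 and 3 were near fed levels while at Lpin1, Pdk4 and Gng7 all 4 mice were high. At 16 h replicates 2 and 3 were the 2 highest in 314 members (40.2%), against 15.7% of all peaks. At 24 h replicates 1 and 2 were the 2 highest in 274 (35.0%), against 16.2%. Sample titles carry a number, taken here to identify the mouse, whose further meaning is not given. Replicates 1 and 3 have consecutive numbers at 3 h, where they were high, and at 8 h, where they were low. The part of this number in these ranks was not tested.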
